A study of Mus musculus with 20 samples.

Results

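The interferon-inducible GTPases described here are Igtp, Irgm1, Irgm2 and Iigp1 of the immunity-related GTPase (IRG) family and Gbp2, Gbp3 and Gbp7 of the guanylate-binding protein (GBP) family. They were chosen by name, as every row of the expression table that carries the platform symbol of a listed gene. Of 9 listed genes, 7 had a row, 4 IRG genes and 3 GBP genes, and each was measured by 1 of the 22206 transcript clusters of the array. Ifi47 and Gbp6 were listed too, and their expression was not analysed here. The NCBI gene identifiers are 16145 for Igtp, 15944 for Irgm1, 54396 for Irgm2, 60440 for Iigp1, 14469 for Gbp2, 55932 for Gbp3 and 229900 for Gbp7.

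The study compared livers of adult sons whose mothers had lived at different ambient temperatures in pregnancy. There were 4 groups of 5 C57BL/6NCr males aged 4 to 5 months, an inbred wild-type strain, and total liver RNA of each mouse went on 1 Affymetrix array. Dams stayed at 10, 18, 23 or 30 °C. Those at 10 and 18 °C had 2 weeks to acclimate before breeding, those at 30 °C had 3 weeks, and sires had 3 days at the matching temperature. Offspring of pairs at 23 °C, the usual animal house temperature, were the controls. From delivery on, every dam and its offspring lived at 23 °C, and the offspring ate standard chow, so all 20 mice were adults under the same housing. The labels name no dam, litter or batch. The p-values below rest on the spread from mouse to mouse, and sons of 1 dam would not be independent. The offspring are named by the maternal temperature.

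IRG and GBP proteins are large GTPases that cells make after contact with interferons, above all interferon gamma. They act inside the cell against parasites and bacteria that live in vacuoles. Effector IRG proteins such as Iigp1 and GBP proteins such as Gbp2 bind GTP and gather on the vacuole of the intruder, whereas the regulators Irgm1, Irgm2 and Igtp sit on the membranes of the host cell and hold the effectors inactive there. Hepatocytes, Kupffer cells (the resident macrophages of the liver) and endothelial cells can all respond to interferon.

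The promoters of these genes are shown because they carry the sequences through which interferon acts. Type I interferons act through the interferon-stimulated response element (ISRE) and interferon gamma through the gamma-activated sequence (GAS). The windows ran from 250 bases before to 50 bases after each annotated start in RefSeq (build GRCm38.p6), and 6 of the 7 measured genes, all but Iigp1, were searched. For these genes only matches that began before the start are given. The ISRE core was searched as GAAANNGAAA and, for the other strand, as TTTCNNTTTC, and the GAS as TTCNNNGAA, which reads the same on both strands. Capitals mark the matches, and each stretch is written on the strand of its gene.
Igtp: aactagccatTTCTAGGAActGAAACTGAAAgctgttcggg
Irgm2: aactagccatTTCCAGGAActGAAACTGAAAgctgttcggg
Irgm1: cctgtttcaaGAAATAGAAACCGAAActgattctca
Gbp2: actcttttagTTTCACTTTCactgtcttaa
Gbp3: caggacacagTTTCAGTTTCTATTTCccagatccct
Gbp7: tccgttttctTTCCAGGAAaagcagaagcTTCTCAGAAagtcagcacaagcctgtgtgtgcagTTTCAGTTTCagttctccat

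The stretch before Igtp lies at chr11:58199501-58199541 on the plus strand, 55 to 15 bases upstream of the start. That of Irgm2, the next gene along the chromosome, lies at chr11:58214892-58214932 on the plus strand, 85 to 45 bases upstream. These 2 stretches were the same at 40 of 41 bases, with the substitution T14C from Igtp to Irgm2, counted from 1 at the 5′ end of the stretch. In both, the GAS and the ISRE core were 2 bases apart. Over all 220 bases before the starts that could be compared at the same shift, 60.9% were the same.

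The other stretches lie at chr11:48871425-48871460 on the minus strand for Irgm1 and, on the plus strand, at chr3:142620594-142620623 for Gbp2, chr3:142559989-142560024 for Gbp3 and chr3:142530220-142530302 for Gbp7. Irgm1 and Gbp3 had 2 overlapping ISRE cores each, Gbp2 had a single core, and Gbp7 had 2 GAS matches and then an ISRE core. Thus 6 of 6 measured members searched held the ISRE core, against 3.55% of the 27025 genes in the table. Ifi47, listed but without a row, was searched too and held 0 ISRE cores and 0 GAS matches. The GAS was found in 3 of 6 (Igtp, Irgm2 and Gbp7), against 8.41% of genes, and both motifs together in the same 3, against 0.426%. A match describes letters in a window and is not a measured binding site. Gbp3 has a second annotated window, without a match. Gbp7, Gbp3 and Gbp2 are neighbours on chromosome 3, with Gbp2b between Gbp3 and Gbp2.

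**Figure D1:**
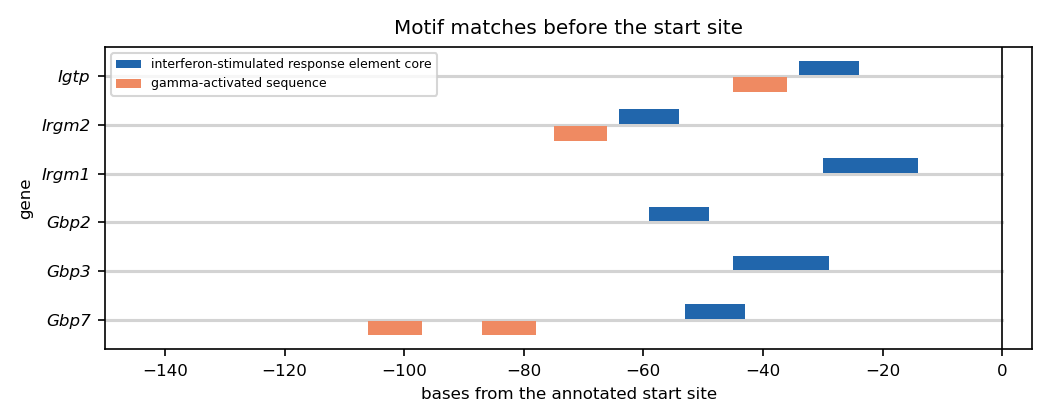
Positions of ISRE core (blue) and GAS (orange) matches before the annotated start of 6 measured GTPase genes, in bases from the start on the horizontal axis and with 1 line per gene. All ISRE cores lie within 64 bases of the start, and Igtp and Irgm2 show the same GAS and ISRE pair at different distances.

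The expression values are log2 values after RMA, which corrects background, makes array distributions alike and summarises the probes of a gene. A difference of 1 is a doubling, a level can be compared between mice but not between genes, and small differences of dim genes are understated. Olfactory and vomeronasal receptor genes, which liver should not express, gave the limit for detection: the 95th percentile of their 1414 clusters was 3.97. All 7 members averaged above it. The mean of the negative control rows was 4.75 on the array where it was highest, and single rows can lie above their mean. Gbp2 was not above that level on 4 of 20 arrays, whereas the other 6 members were above it on all. The 7 measured hepatocyte markers were all detected, with group means of 18.69 to 18.74. The mean of the background control rows was 3.71 ± 0.02 in 10 °C, 3.71 ± 0.04 in 18 °C, 3.65 ± 0.02 in 23 °C and 3.66 ± 0.06 in 30 °C offspring (SD, n = 5 each), so its mean was higher in the 10 and 18 °C groups. Its part in the results below was not tested beyond the fits with this level as a covariate.

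Igtp, also called Irgm3, is a regulator that sits on the endoplasmic reticulum and lipid droplets, and it stood furthest apart between groups of the 7 members. In 10 °C offspring the 5 log2 values were 8.10, 8.0, 7.42, 7.54 and 7.25 in order of animal number (2, 4, 5, 6 and 8), and in 18 °C offspring (animals 1, 3, 4, 5 and 7) they were 8.09, 7.90, 7.41, 7.97 and 7.68. In 23 °C controls (animals 1, 2, 15, 17 and 23) they were 7.22, 6.91, 6.86, 7.34 and 6.85. In 30 °C offspring (animals 4 to 8) they were 7.53, 7.21, 7.37, 7.53 and 7.56. The controls were lowest: every 18 °C value lay above every control value, and so did 4 of 5 values at 10 °C and 4 of 5 at 30 °C. Group means were 7.81 ± 0.27 at 18 °C, 7.66 ± 0.37 at 10 °C, 7.44 ± 0.15 at 30 °C and 7.04 ± 0.23 at 23 °C (SD, n = 5).

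Against controls, the Igtp level was higher by 0.77 ± 0.17 on the log2 scale (SE) in 18 °C offspring, a 1.71-fold difference with a 95% interval of 0.42 to 1.13 on the log2 scale. This was the smallest p that 252 relabelings can give in an exact permutation test (p = 0.0079, two-sided), but with limma over all 22206 clusters the adjusted p was 0.249. In 10 °C offspring it was higher by 0.63 ± 0.17, or 1.54-fold (exact permutation p = 0.0159, limma adjusted p = 0.170), and in 30 °C offspring by 0.40 ± 0.17 (exact permutation p = 0.0238, limma adjusted p = 0.978). These 3 comparisons share the same 5 control arrays, so the low control values enter all of them. Between neighbours in the order of means, 18 and 10 °C differed by less than the spread (10 minus 18 °C, -0.15 with a 95% interval of -0.50 to 0.21), and so did 10 and 30 °C (0.23, -0.13 to 0.58). In the test over all 4 groups limma's F was 7.77, with an unadjusted p of 0.00098 and an adjusted p of 0.345. Igtp therefore did not pass the threshold of 0.05 after adjustment over all clusters in any comparison.

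Irgm1 is the regulator found on the Golgi apparatus and on lysosomes and is needed for resistance to several intracellular bacteria. Its log2 values were 10.13, 10.02, 10.26, 9.99 and 9.91 in 10 °C and 9.59, 10.54, 10.05, 10.19 and 10.67 in 18 °C offspring. Controls had 10.15, 9.69, 10.01, 10.01 and 10.05, and 30 °C offspring had 9.73, 10.08, 9.86, 10.02 and 9.93. The 18 °C group was the widest, holding both the highest and the lowest of the 20 values, and all groups overlapped. Means ran from 10.21 ± 0.43 at 18 °C and 10.06 ± 0.13 at 10 °C to 9.98 ± 0.17 at 23 °C and 9.92 ± 0.14 at 30 °C. No neighbours in this order differed beyond their spread, and the difference of 18 °C offspring from controls was 0.23 ± 0.16 (95% interval -0.11 to 0.57, limma adjusted p = 0.708).

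Irgm2, the third regulator, is a Golgi protein. It read 9.94, 9.97, 9.44, 9.84 and 9.05 in 10 °C and 8.78, 9.66, 9.49, 8.98 and 9.50 in 18 °C offspring. The controls read 9.09, 8.59, 9.25, 10.24 and 9.19, and the 30 °C offspring 9.44, 8.17, 9.16, 9.18 and 9.58. Spread within groups was the largest of the 7 members: the highest value of all 20 arrays was control animal 17 and the lowest was 30 °C animal 5. Group means were 9.65 ± 0.39 at 10 °C, 9.28 ± 0.38 at 18 °C, 9.27 ± 0.60 at 23 °C and 9.11 ± 0.55 at 30 °C. Irgm2 was higher by 0.38 ± 0.28 in 10 °C offspring than in controls (exact permutation p = 0.302, limma adjusted p = 0.636). That value was 0.62 without control animal 17 and 0.20 without control animal 2. The difference between 18 °C offspring and controls was 0.01 (95% interval -0.57 to 0.59), beside 0.77 for Igtp, whose promoter stretch is nearly identical. Whether the differences of these 2 genes differ was not tested. No neighbours in the order of the Irgm2 means differed beyond their spread.

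Iigp1, also called Irga6, is the effector of the 4 IRG genes. Values were 9.90, 9.63, 9.98, 10.13 and 9.83 in 10 °C offspring, 9.67, 9.79, 9.55, 9.48 and 10.16 in 18 °C offspring, 10.21, 9.23, 9.44, 9.64 and 9.76 in controls, and 10.08, 9.46, 10.16, 10.00 and 9.50 in 30 °C offspring. Every group overlapped with every other, and the highest single value belonged to a control. The group means kept within 0.24 of each other, the closest of the 7 members, from 9.65 ± 0.37 at 23 °C through 9.73 ± 0.27 at 18 °C and 9.84 ± 0.33 at 30 °C to 9.90 ± 0.18 at 10 °C. No neighbours in that order differed beyond their spread.

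Gbp2 coats pathogen vacuoles and was the dimmest member against the negative controls. It read 5.55, 5.45, 5.38, 4.39 and 4.79 in 10 °C and 4.75, 5.32, 5.06, 5.57 and 5.66 in 18 °C offspring. In controls it read 5.08, 4.60, 4.82, 5.04 and 4.98, and in 30 °C offspring 4.22, 4.76, 4.60, 5.45 and 4.95. In each of the 10 and 18 °C groups 3 of 5 mice lay above every control, while the other 2 mice of the 10 °C group lay at or below the control median. Means were 5.27 ± 0.37 at 18 °C, 5.11 ± 0.50 at 10 °C, 4.90 ± 0.19 at 23 °C and 4.79 ± 0.45 at 30 °C, with no difference between neighbours beyond their spread. The largest pairwise difference, 18 against 30 °C, was 0.48 ± 0.23 (exact permutation p = 0.111, limma adjusted p = 0.609).

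Gbp3 varied least within groups. Its values were 6.18, 6.32, 5.99, 5.97 and 6.04 in 10 °C and 6.15, 6.05, 6.39, 6.07 and 6.47 in 18 °C offspring. They were 5.71, 6.21, 5.76, 6.23 and 5.94 in controls and 6.19, 5.69, 5.79, 5.97 and 5.84 in 30 °C offspring. Each of the 10 values from the 2 cold groups lay above the median of the 10 others, although the ranges overlapped. The means were 6.22 ± 0.19 at 18 °C, 6.10 ± 0.15 at 10 °C, 5.97 ± 0.24 at 23 °C and 5.89 ± 0.19 at 30 °C, falling in that order by steps smaller than the SDs. Between 18 and 30 °C the difference was 0.33 ± 0.14 (exact permutation p = 0.0397, limma adjusted p = 0.546).

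Gbp7, which takes part in assembling the oxidase that makes reactive oxygen at the vacuole, read 8.56, 8.90, 8.88, 8.23 and 9.17 in 10 °C offspring and 8.77, 8.88, 8.72, 8.44 and 8.77 in 18 °C offspring. Controls read 8.38, 8.58, 8.31, 8.80 and 8.08, and 30 °C offspring 8.71, 8.25, 8.63, 7.97 and 8.58. The 2 cold groups had nearly the same mean, 8.75 ± 0.36 at 10 °C and 8.72 ± 0.16 at 18 °C, and the 2 warmer groups had nearly the same mean too, 8.43 ± 0.27 at 23 °C and 8.43 ± 0.31 at 30 °C. Against controls the differences were 0.32 ± 0.18 at 10 °C and 0.28 ± 0.18 at 18 °C (limma adjusted p = 0.512 and 0.668). It was the member with the smallest p for a slope on maternal temperature, -0.18 ± 0.09 per 10 °C, which did not pass (limma adjusted p = 0.601).

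**Figure D2:**
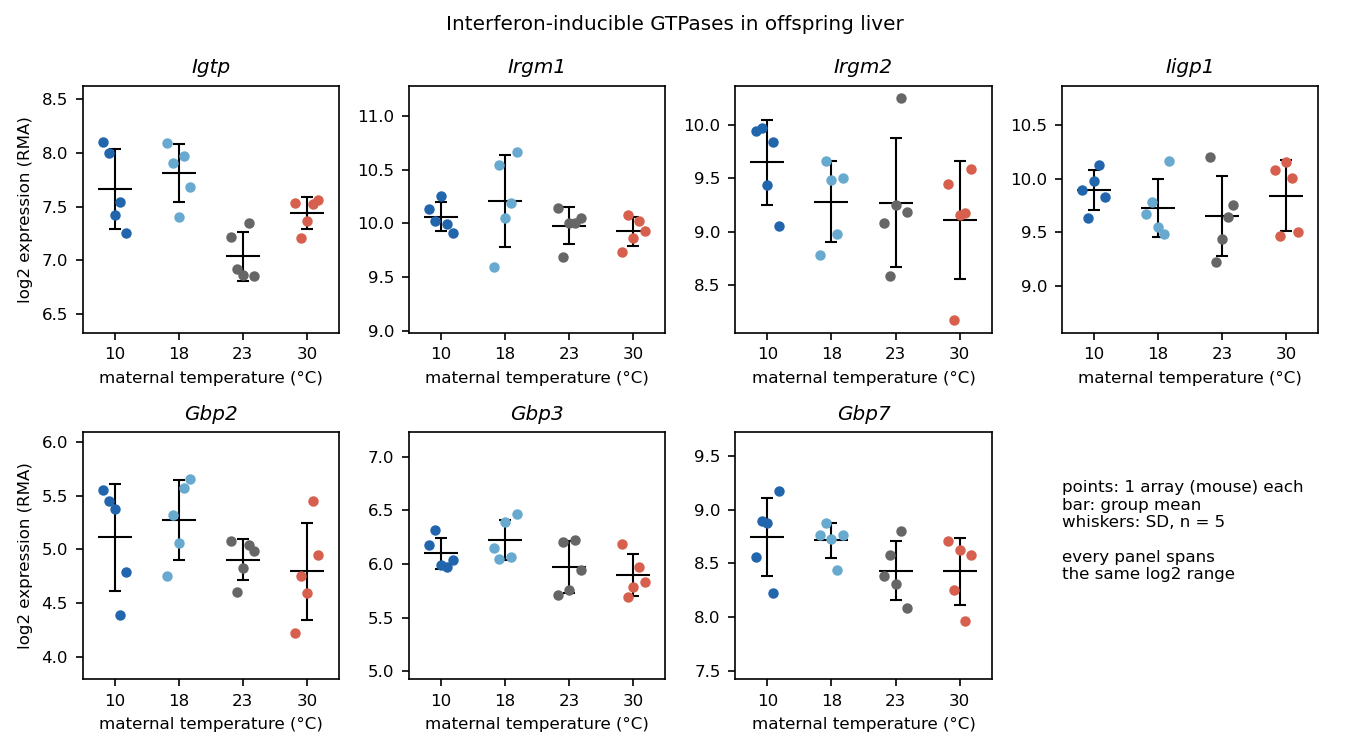
Log2 expression (vertical axis) of the 7 GTPases in offspring liver by maternal temperature in °C (horizontal axis), with 1 point per mouse, bars for group means and whiskers for SD, n = 5. The 5 Igtp points at 18 °C, between 7.41 and 8.09, lie above the 5 control points, between 6.85 and 7.34, and no other panel shows 18 and 23 °C points apart.

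Across the 7 members, 0 passed the adjusted threshold of 0.05 in any of the 6 pairwise limma comparisons, the pooled comparison, the F-test or the slope. At that threshold the background was as sparse: 0.00901% of clusters passed for 10 against 23 °C, 0.0045% for the pooled comparison, and 0.0% in each of the others. At an unadjusted p under 0.05, 1 of 7 members (Igtp) was higher at 10 °C than in controls, where 5.73% of all clusters were higher. Igtp was also the 1 of 7 for 18 °C against controls (4.36% of clusters) and for 30 °C against controls (2.21%). For 18 against 30 °C there were 2 of 7, Igtp and Gbp3 (4.21%), and for 10 against 30 °C (3.63%) and 10 against 18 °C (8.1% in either direction) there were 0. A share of 1 in 7 is a single gene, and these comparisons share arrays. Groups that did not overlap were found for 1 of 7 members between 18 °C and controls, again Igtp, beside 0.77% of clusters. The F-test gave 1 of 7 (9.86% of clusters) and the slope gave 1 of 7, Gbp7, lower with temperature (4.3%).

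The means mostly pointed one way. All 7 members had their highest group mean in the 10 or the 18 °C group, where 52.9% of clusters had theirs. Offspring at 10 °C had a higher mean than controls for 7 of 7 members (50.4% of clusters), and so did those at 18 °C (49.6%). At 18 °C the count includes Irgm2 at 0.01 and Iigp1 at 0.08, whose sign turned in 7 and 3 of 30 alternative fits. The 30 °C offspring were higher than controls for 2 of 7, Igtp and Iigp1 (48.7%). The median member difference from controls was 0.24 at 10 °C, 0.25 at 18 °C and -0.05 at 30 °C, beside medians of 0.00, 0.00 and -0.01 over all clusters. The 30 °C median turned to 0.08 without control animal 17. With the background level of each array as a covariate, the median at 18 °C was 0.11, while the difference of Igtp was 0.83. Between 10 and 18 °C, the 2 cold groups, 3 of 7 members were higher at 10 °C (50.1%).

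When the 10 and 18 °C groups were pooled against the 23 and 30 °C groups, the 7 members all had higher means (50.9% of clusters did), with differences from 0.07 to 0.50 and a median of 0.27. Igtp was higher by 0.50 ± 0.12 (95% interval 0.25 to 0.75, 1.41-fold, permutation p = 0.0022, limma adjusted p = 0.159), and 9 of 10 cold arrays lay above the median of the others. Gbp2 was higher by 0.34 ± 0.16, Gbp7 by 0.30 ± 0.13 and Gbp3 by 0.23 ± 0.10, with permutation p of 0.0617, 0.0234 and 0.0166 and limma adjusted p of 0.432, 0.372 and 0.378. With the background level of each array as a covariate, these 3 differences were 0.54, 0.12 and 0.10, so those of Gbp7 and Gbp3 were smaller and that of Gbp2 larger. These 4 of 7 had an unadjusted limma p under 0.05, where 5.71% of clusters were higher at that level. All 3 GBP genes were among them, and Igtp was the only IRG gene. For Irgm2 the difference was 0.27 ± 0.20, for Irgm1 0.18 ± 0.12 and for Iigp1 0.07 ± 0.13. The pooled groups were formed with earlier results of these data known, so these values describe the pattern and are not independent evidence for it.

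**Figure D3:**
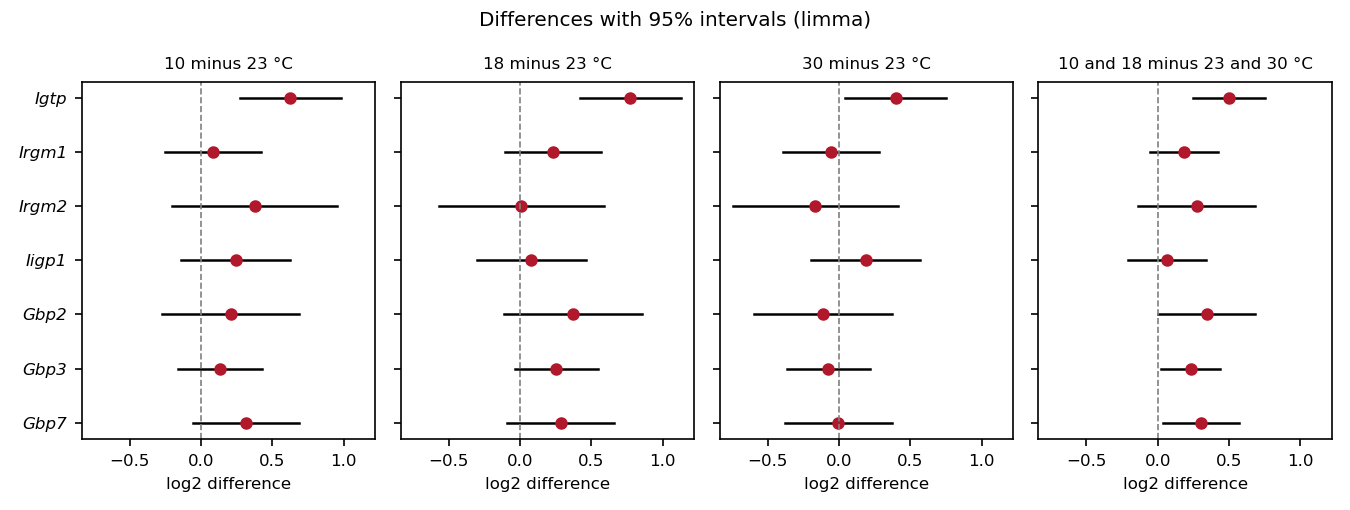
Log2 differences (horizontal axis) of the 7 GTPases (vertical axis) for 10, 18 and 30 °C offspring against 23 °C controls and for pooled 10 and 18 °C against pooled 23 and 30 °C offspring, with red points for limma estimates and lines for 95% intervals not adjusted for multiple testing. Igtp lies to the right of 0 in all 4 panels, and in the panels against controls every interval of the other 6 genes spans 0.

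The mice themselves differed in how many members were high. In 18 °C animals 3 and 7 all 7 members were above their own 20-array means, and in 10 °C animal 2 it was 6. At the other end, control animal 15 had 0 of 7 above, and control animal 23 and 30 °C animal 5 had 1 each. The mean of the members, each centred on its own average, was highest in 18 °C animal 7 (0.38) and lowest in 30 °C animal 5 (-0.38). The groups overlapped in this mean: control animal 17 reached 0.15, while 18 °C animal 1 was at -0.07 and 10 °C animal 8 at -0.03.

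**Figure D4:**
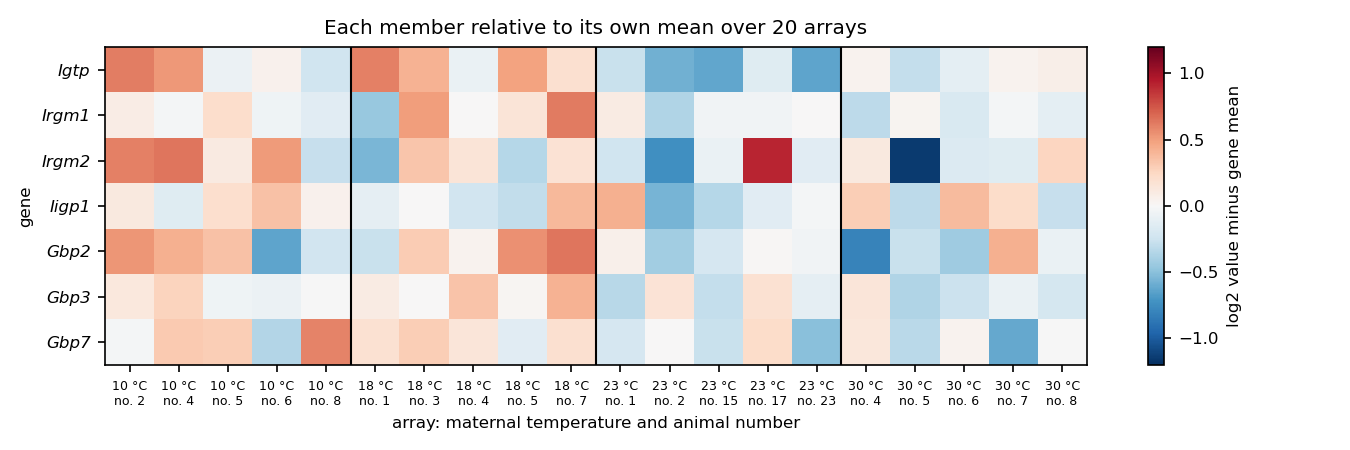
Log2 value of each GTPase (vertical axis) minus its own mean over 20 arrays, by array (horizontal axis, maternal temperature and animal number), with red above and blue below the mean. Igtp is blue in all 5 control columns, while Irgm2 is most red in control animal 17 and most blue in 30 °C animal 5.

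The members were only loosely coupled from mouse to mouse. Over the 21 pairs the median Pearson r across 20 arrays was 0.28, from -0.04 to 0.71, and 19 pairs were positive. Taken within groups the median was 0.16 (from -0.18 to 0.64) with 15 positive pairs. The closest pair was Irgm1 and Gbp2, an IRG regulator and a GBP on different chromosomes (r = 0.71, rho = 0.80, and r = 0.64 within groups). The neighbours Gbp3 and Gbp7 had r = 0.50, and the neighbours Igtp and Irgm2 had r = 0.36. All values of an array share its RNA and its normalisation, so these correlations are given as descriptions.

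By rule, the 10 detected genes whose values followed the mean of the centred members most closely over the 20 arrays were named. They were Neu3, a sialidase (r = 0.78), Gbp9 (0.77), the splicing factor Isy1 (0.75), Marchf6 (0.74), Zfp819 (0.73), Dcbld2 (0.73), Txndc16 (0.72), Tap1 (0.72), Aig1 (0.70) and Cotl1 (0.70). Zfp819 and Dcbld2 averaged 4.30 and 4.19, above the receptor limit of 3.97 but below the lowest array mean of the negative controls, 4.40. Of the 10, Gbp9 is another guanylate-binding protein, and Tap1, which carries peptides to MHC class I molecules, is a target of interferon gamma. Within groups, Gbp9 had r = 0.61 and Tap1 r = 0.56. Other interferon-induced genes ranged widely in r. It was 0.52 for Irf7, 0.51 for Ifit1, 0.49 for the IRG gene Tgtp2, 0.19 for Irf1 and 0.01 for the immunoproteasome subunit Psmb8. Within groups r was 0.19 for Irf7, -0.01 for Ifit1, 0.62 for Tgtp2, 0.18 for Irf1 and -0.27 for Psmb8. These 5 genes were chosen after their values had been seen.

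The other members of both families showed no common direction. Of 11 further IRG genes listed, 8 had a row, 5 had a higher mean in the pooled cold comparison, 0 passed the adjusted threshold, and the median was 0.11. The IRG genes 9930111J21Rik1 and 9930111J21Rik2 were both at 0.24 (limma adjusted p = 0.442 and 0.546), and F830016B08Rik, near Iigp1 on its chromosome, was at -0.28 ± 0.19 (limma adjusted p = 0.601). Of 8 further GBP genes, 3 had a row. Gbp9 was at 0.42 ± 0.13 and Gbp8 at -0.38 ± 0.12 (limma adjusted p = 0.219 and 0.210), opposite in sign and alike in size, and Gbp4 was at -0.10 ± 0.20. Closely related family members can share probes, and how far they were separated on the array is not given in the sources used here. The antiviral GTPases Mx1 and Mx2 were at 0.10 and -0.03, and the very large GTPase Gvin1 at -0.23 (limma adjusted p from 0.762 to 0.949). Mx1 averaged 4.51, below the highest array mean of the negative controls, 4.75.

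Upstream of the GTPases, the interferon genes were mostly below the limit. Only 3 of 19 measured ligands averaged above it: Ifna5 at 5.68, Ifna7 at 4.25 and Ifnl3 at 4.09. Ifna7 and Ifnl3 were below the lowest array mean of the negative controls, 4.40. Ifng was at 3.16. The 3 ligands with the smallest p in the pooled cold comparison were Ifnl2 (-0.24), Ifna14 (0.30) and Ifna4 (0.24). All of these were under the limit, and no change is read from them. Of 6 receptor subunits, 4 had higher means in the pooled cold comparison and the median was 0.16. Of the 6, all had higher means at 10 than at 18 °C (median 0.22). Against controls, 5 of 6 had higher means at 10 °C (median 0.26, 3 at an unadjusted p under 0.05) and 3 of 6 at 18 °C (median -0.03, 0 at that level). Of all clusters, 5.73% were higher at that level at 10 °C and 4.36% at 18 °C. The 3 receptors at 10 °C were Ifngr1, Ifngr2 and Ifnlr1, the last below the limit. In the pooled cold comparison, Ifngr1, the ligand-binding chain of the interferon gamma receptor, was at 0.25 ± 0.13. Il10rb, shared by the lambda interferon receptor, was at 0.16 ± 0.11 there. Ifnlr1 was at 0.33 ± 0.11, from a mean of 3.34, below the limit. The limma adjusted p of these pooled differences were 0.460, 0.602 and 0.239. The values of transducers and inhibitors that follow are from the pooled cold comparison too. Of 10 measured signal transducers, 4 had higher means, with a median of -0.02. Irf9 was at 0.17 and its partner Stat2 at -0.17, and Irf2, which opposes Irf1, was at -0.16. Among 9 inhibitors of the pathway, 8 had higher means (median 0.10): Usp18, which blocks the type I receptor and is itself induced by it, was at 0.55 ± 0.17 (limma adjusted p = 0.231), the phosphatase Ptpn2 at 0.13 and Socs1, below the limit, at 0.10.

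Most other targets of interferon had higher means in the pooled cold comparison, and 0 passed the adjusted threshold. Over all clusters, 50.9% had higher means there and 5.71% were higher at an unadjusted p under 0.05. The share that was lower at that level is not given here. Of 22 measured interferon gamma targets, 16 had higher means, 3 at an unadjusted p under 0.05 and 0 lower at that level (median 0.08). These counts include genes below the limit, since 16 of the 22 averaged above it. Tap1 was at 0.41 ± 0.14, the immunoproteasome subunit Psmb9 at 0.38 ± 0.18 and the proteasome activator Psme1 at 0.20 ± 0.08 (limma adjusted p = 0.254, 0.433 and 0.369). The pooled value of Psmb9 came from the 18 °C group, with a mean of 7.44 ± 0.40 beside 6.63 ± 0.55 at 10 °C, 6.63 ± 0.37 at 23 °C and 6.68 ± 0.44 at 30 °C. Of 24 measured type I interferon targets, 22 had higher means, 8 at an unadjusted p under 0.05 and 0 lower (median 0.19). Here too genes below the limit are counted, since 18 of the 24 averaged above it. The translation inhibitor Ifit1 was at 0.68 ± 0.12, the amplifying factor Irf7 at 0.68 ± 0.18 and Rtp4 at 0.44 ± 0.12 (limma adjusted p = 0.068, 0.174 and 0.178). Whether these lists and the 7 GTPases differ was not tested.

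The proteins with which the GTPases work at the vacuole showed no shared direction. In the pooled cold comparison, 6 of 16 autophagy genes had higher means (median -0.03), with 1 higher and 2 lower at an unadjusted p under 0.05. Of all clusters, 5.71% were higher at that level, and the share that was lower is not given here. No excess is read from these counts. Gabarap and Atg16l1, which help to place IRG and GBP proteins on vacuoles, were at -0.29 ± 0.10 and -0.34 ± 0.13, and Atg7 was at 0.29 ± 0.12 (limma adjusted p = 0.282, 0.342 and 0.355). Of 8 inflammasome genes, on which GBP proteins act, 7 had higher means (median 0.13), 0 at an unadjusted p under 0.05, and 5 averaged above the limit. Casp4 was at 0.22, Gsdmd at 0.15, and Nlrp3, below the limit, at 0.32.

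**Figure D5:**
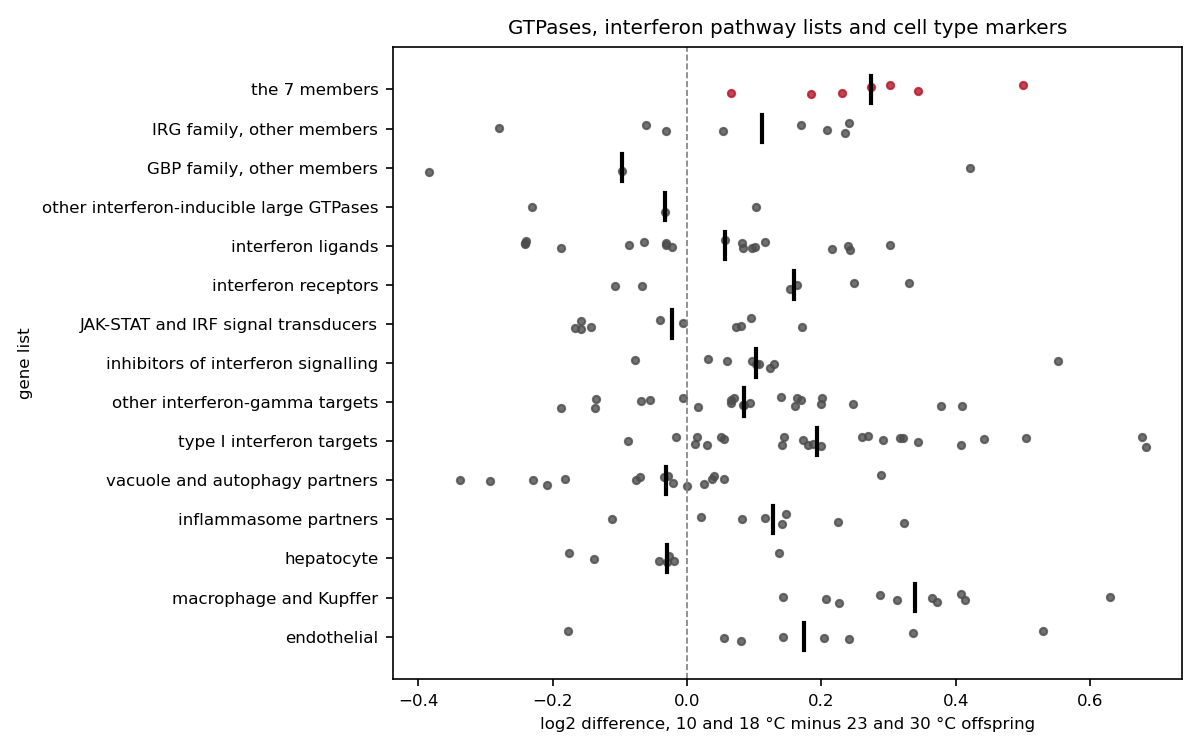
Log2 differences between pooled 10 and 18 °C and pooled 23 and 30 °C offspring (horizontal axis) for the 7 GTPases (red) and for lists of related genes and cell type markers (grey, vertical axis), with 1 point per gene and a bar at each median. The GTPases lie between 0.07 and 0.50 with a median of 0.27, the type I targets have a median of 0.19, and all 10 macrophage markers lie above 0.

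Macrophage and Kupffer cell markers had higher means in the cold groups too. All 10 measured markers, of 11 listed, were detected and had higher pooled cold means, with a median of 0.34, 3 at an unadjusted p under 0.05 and 0 called. Of all clusters, 5.71% were higher at that unadjusted level. Their mean log2 level was 7.67 ± 0.21 at 10 °C, 7.67 ± 0.35 at 18 °C, 7.35 ± 0.36 at 23 °C and 7.31 ± 0.32 at 30 °C. Summed on the linear scale, the marker signal per mouse ranged from 3001 to 4155, 2615 to 4676, 1689 to 3566 and 1803 to 4070 in these groups. Of 8 endothelial markers 7 had higher means, with a median of 0.17, as had 7 of 8 stellate cell markers (0.14) and 5 of 5 mesothelial or adipocyte markers (0.19, 2 of 5 detected). Hepatocyte markers had higher means in 1 of 7 (median -0.03), and the 2 measured red cell markers had a median of -0.20. Of the other blood cell lists, 1 of 8 T cell, 1 of 9 NK cell, 1 of 8 monocyte and dendritic cell, 1 of 7 neutrophil and 0 of 6 B cell markers averaged above the limit. In RNA of whole liver, more cells of a type and more RNA per cell cannot be told apart.

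The members did not all follow these markers from mouse to mouse. The correlation with the macrophage marker mean over 20 arrays was 0.46 for Gbp3 (rho = 0.52) and for Gbp7 (rho = 0.47), 0.35 for Igtp (rho = 0.35), and negative for the other 4, as low as -0.21 for Irgm1 (rho = -0.16). Within groups it was 0.05 for Igtp and -0.52 for Irgm1. With the macrophage marker level as a covariate, an alternative added after the data had been seen, the Igtp difference between 18 °C offspring and controls was 0.76 (limma adjusted p = 0.414, against 0.249 without it) and the pooled difference 0.49 (0.426, against 0.159). The median pooled difference of the members was then 0.32. With the endothelial marker level the same Igtp values were 0.76 and 0.49. With the background level of each array they were 0.83 and 0.55, and the median pooled difference was 0.17. Whether macrophage content or array background plays a part in the differences was not tested beyond these fits.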

How the data were processed

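Total liver RNA of 20 mice was hybridised to Affymetrix arrays. The deposited table holds log2 values that the authors made with RMA, per the submitters' processing notes, which also name the Transcriptome Analysis Console. Versions, settings and the genome build of the probes are not given in the sources used here. Of 28846 rows, 6640 control rows were left out of the tests. Of the 22206 transcript clusters, 19572 had 1 gene symbol in the platform annotation and 2634 had none.

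Differences came from a linear model with moderated variances (limma 3.58.1, run in R 4.3.3, functions lmFit and eBayes) with 4 group means and no covariate for every cluster, two-sided, with Benjamini-Hochberg adjustment over all clusters and a threshold of 0.05. Single members were also tested by exact permutation of the 10 arrays compared, or by a permutation test for the pooled comparison (SciPy 1.17.1). The fit was tested on simulated data. For arrays, the number of mice limits the precision.

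The members, the gene lists and the pooled comparison were chosen with earlier results of these data known. Named were all members with a row, the 3 genes of each list with the smallest p in the pooled comparison, and the 10 genes closest to the mean of the members. Genes were placed next to each other by the RefSeq gene table, and promoter sequences are RefSeq's (GRCm38.p6), with 6 of 7 measured members matched.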

Additional observations from a re-analysis of the deposited data

How the results depend on the processing

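In limma refits, 0 members passed the adjusted threshold under any alternative: an intensity trend with robust variance, array weights, only the arrays compared, a filter on dim clusters, repeated quantile normalisation, median centring, the background, macrophage or endothelial marker level as a covariate (the latter 2 added after the data had been seen), a replicate block, and each array left out in turn. The smallest adjusted p was 0.0982, for the pooled difference of Igtp. That gene kept its direction in all of them, with ranges over the left-out arrays of 0.70 to 0.88 for 18 °C against controls and 0.45 to 0.55 for the pooled comparison. Over 1463 values in 49 comparisons of single members, 38 changed sign, all of them uncalled and in 15 of the 49. Nothing in the labels says that the numbers of the animals pair the groups. Arrays with the same number deviated together no more than others (median r -0.0004 over 11 pairs and 0.0023 over 139). With 11 pairs, none of which holds control animal 15, 17 or 23, this cannot exclude a pairing or a shared batch. With the number as a replicate block, Igtp was at 1.03 for 10 °C and 1.03 for 18 °C against controls and 0.60 in the pooled comparison (limma adjusted p = 0.771, 0.999 and 0.589). In this fit an array whose number no other array has adds nothing to the differences. That holds for control animals 15, 17 and 23 and for 18 °C animal 3. The block-fit comparisons with controls therefore rest on control animals 1 and 2 alone. In the same block fit, the sign turned for Irgm1 between 10 °C and controls (-0.031), 18 °C and controls (-0.077) and 10 and 18 °C (0.046), for Iigp1 between 18 °C and controls (-0.12), for Irgm2 between 30 °C and controls (0.17), and between 10 and 18 °C for Gbp2 (0.11), Gbp7 (-0.013) and the median of the members (0.046). With the background level, it turned for Gbp3 at 10 °C (-0.011) and Irgm2 at 18 °C (-0.11) against controls. Gbp7 between 30 °C and controls turned with array weights (0.00607), the macrophage level (0.00466) and the endothelial level (0.015). The endothelial level also turned Iigp1 between 18 and 30 °C (0.17) and between 10 and 18 °C (-0.0025). Leaving out single arrays gave -0.29 to 0.018 for Gbp2 and -0.076 to 0.16 for Gbp7 between 10 and 18 °C. Between 30 °C and controls it gave -0.28 to 0.033 for Gbp2, -0.092 to 0.11 for Gbp7 and -0.33 to 0.079 for Irgm2. Between 18 °C and controls it gave -0.031 to 0.22 for Iigp1 and -0.16 to 0.25 for Irgm2, between 10 and 30 °C -0.041 to 0.13 for Iigp1, and between 18 and 30 °C -0.060 to 0.30 for Irgm2. The cause of these changes was not tested. Gbp2, which was not above the highest array mean of the negative controls on 4 arrays, is the member whose differences the signal limits most.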
